A study of Mus musculus with 4 samples.

Results

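The genes described here make, break down and sense prostaglandins in mouse lung. They are 10 genes, the cyclooxygenases Ptgs1 and Ptgs2, the terminal synthases Ptges, Ptges2, Ptgis, Ptgds and Tbxas1, the degrading enzyme Hpgd, and the prostaglandin E2 receptor genes Ptger2 and Ptger4. They were chosen by gene name among the non-control probes of 4 scanner files, with the signals of these arrays known. They have 19 of the 56605 probes and are 10 of the 27195 genes named. The study measured lung RNA of C57BL/6J mice on 1-colour Agilent arrays after ORX or sham surgery and inhalation of PPE or PBS.

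The groups were ORX/PPE (ORX surgery, PPE inhaled), ORX/PBS (ORX surgery, PBS inhaled), sham/PPE (sham surgery, PPE inhaled) and sham/PBS (sham surgery, PBS inhaled). ORX was read as orchiectomy and PPE as porcine pancreatic elastase, since the series title names testosterone deficiency and elastase-induced emphysema. The labels place the measurement at 3 weeks, give no age, and name no mutant allele or transgene. Each group was 1 array, hybridised with a pool of RNA from 5 animals, so no value has a spread between mice and no test between groups was made. Each value below is a description of 4 pools, and whole-lung RNA cannot tell fewer cells of a type from less RNA per cell.

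Prostaglandins are made from arachidonic acid, which phospholipases A2 free from membranes. The cyclooxygenases turn it into prostaglandin H2, from which separate synthases make prostaglandin E2, prostacyclin, prostaglandin D2 and thromboxane A2. The lung is a main site of their uptake and breakdown, where Hpgd oxidises prostaglandin E2 and ends its action. Ptgs1 is made steadily in many cells, while Ptgs2 is known as the inducible cyclooxygenase.

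Signals are given as the scanner software's processed signal of a gene's brightest probe, scaled so that the 75th percentile of each array is 1000. They compare 1 probe across arrays and say nothing about levels of different genes. Differences are log2 of the first group named minus the second. Well above background were 20132 to 20912 genes, depending on the array, and 16 of the 19 prostaglandin probes on all 4. All 10 markers of alveolar type 2 cells and all 10 of alveolar type 1 cells had signal above background on every array. The sham/PPE array stood apart in markers of other tissues. Of 10 germ cell markers, 7 were at least 2-fold higher there than on the sham/PBS array, and the protamine gene Prm1 had 1395 there against 23.9 on sham/PBS. The brown fat gene Ucp1 had 2509 on sham/PPE, and the 10 cardiac markers summed to 145335 there against 68657 on sham/PBS. Every comparison with sham/PPE rests on that array, and none of these has a second array to replace it.

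Of the 10 genes, 5 are on chromosome 2. The brightest probes there are at chr2:36107644-36107703 for Ptgs1 and chr2:32257968-32258027 for Ptges2 (plus strand), and at chr2:25322232-25322291 for Ptgds and chr2:167028696-167028755 for Ptgis (minus strand), on build mm9 as are all probe positions. Those of Tbxas1 (chr6:39034356-39034415), Hpgd (chr8:58799399-58799458) and Ptger2 (chr14:45622004-45622063) are on the plus strand, and that of Ptger4 (chr15:5183422-5183481) on the minus strand. Probe positions in exons or untranslated regions were not analysed here.

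The promoters of the 2 cyclooxygenase genes and of Tbxas1 are shown because these genes differed among the arrays in unlike ways. They are RefSeq sequences of build GRCm38.p6, from 250 bases before to 50 bases after the listed start, and 9 of the 10 genes had an entry. Ptgs2 is chr1:150099781-150100080, Ptgs1 is chr2:36230176-36230475 and Tbxas1 is chr6:38918736-38919035, all on the plus strand.
Ptgs2: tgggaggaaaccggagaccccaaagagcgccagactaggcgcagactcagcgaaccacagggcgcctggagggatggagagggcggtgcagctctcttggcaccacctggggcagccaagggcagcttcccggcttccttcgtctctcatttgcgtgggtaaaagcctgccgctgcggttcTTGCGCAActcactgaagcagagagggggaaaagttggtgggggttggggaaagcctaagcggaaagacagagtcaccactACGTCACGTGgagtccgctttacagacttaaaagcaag
Ptgs1: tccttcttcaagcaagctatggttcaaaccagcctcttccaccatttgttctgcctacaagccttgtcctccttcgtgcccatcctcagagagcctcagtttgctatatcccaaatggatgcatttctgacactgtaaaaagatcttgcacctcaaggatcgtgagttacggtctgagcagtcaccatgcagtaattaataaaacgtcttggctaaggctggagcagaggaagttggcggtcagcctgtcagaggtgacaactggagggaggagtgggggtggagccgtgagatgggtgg
Tbxas1: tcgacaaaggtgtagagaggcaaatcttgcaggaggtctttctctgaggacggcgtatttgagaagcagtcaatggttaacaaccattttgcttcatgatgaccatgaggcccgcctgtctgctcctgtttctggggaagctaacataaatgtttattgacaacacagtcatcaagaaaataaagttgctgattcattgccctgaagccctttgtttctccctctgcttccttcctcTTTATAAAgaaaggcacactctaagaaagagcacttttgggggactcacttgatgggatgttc
Capitals mark the letters of 4 motifs, searched on both strands and chosen after the Ptgs2 promoter was seen. They are the TATA box TATAAA, the cAMP response element core ACGTCA, the E-box CACGTG and the C/EBP palindrome TTGCGCAA. The Ptgs2 window held TTGCGCAA 69 to 62 bases before the start, and ACGTCA overlapping CACGTG 13 to 22 bases after it. The Tbxas1 window held TATAAA and its reverse complement overlapping just before the start, and the Ptgs1 window held none of the 4. Among 32851 promoter windows of the same length, 13.6% held the TATA box, 7.51% the cAMP element core, 7.15% the E-box and 0.183% the C/EBP palindrome.

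Among the 10 genes, Ptgs2 was the one with the largest range over the 4 arrays, and the one that passed 2-fold in a comparison. It was lower after PPE in both surgeries. Its signal was 336 on ORX/PPE, 572 on ORX/PBS, 286 on sham/PPE and 740 on sham/PBS. Both PPE arrays thus lay below both PBS arrays. The difference of PPE against PBS was -0.77 in ORX mice and -1.37 in sham mice, and a difference between single spots of this brightness had an SD of 0.09 from the spots alone, which covers spots and not mice. In sham mice Ptgs2 ranked 9th from the lowest among 19643 genes measured on both arrays, and in ORX mice 156th among 19885. Under PBS, ORX against sham gave -0.37, and under PPE it gave 0.23. The PPE difference was therefore 0.61 less negative in ORX mice, a contrast that no test was made on. With background correction by normexp the PPE differences were -0.65 in ORX mice and -1.19 in sham mice.

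At the 2-fold threshold 0 of the 10 genes were called for PPE in ORX mice, where 1.06% of all genes tested were called. For PPE in sham mice 1 gene was called, Ptgs2, where 1.71% of all genes tested were called. For ORX under PPE 0 were called beside 1.74% of all genes tested, and for ORX under PBS 0 beside 1.84%. The choice of the 10 genes used these signals, so nothing is read from these shares. The median difference of the 10 genes was 0.08 for PPE in each surgery, 0.22 for ORX with PPE and 0.13 for ORX with PBS. Over all genes the medians lay between -0.01 and 0.02.

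**Figure D1:**
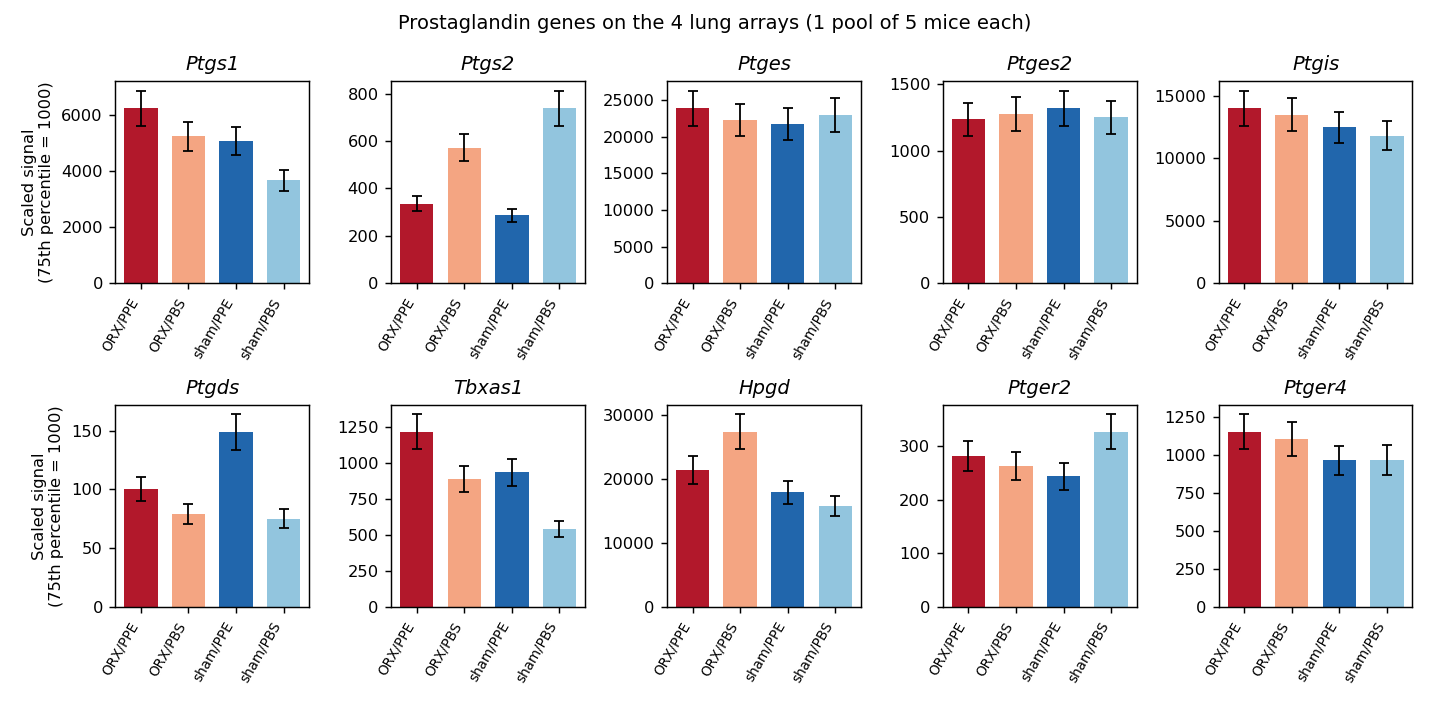
Scaled signal (75th percentile of each array set to 1000) of the brightest probe of each of the 10 genes on the ORX/PPE, ORX/PBS, sham/PPE and sham/PBS arrays. Bars are 1 array each and error lines are the scanner software's error of the signal, not a spread between mice. Ptgs2 is low on both PPE arrays, Tbxas1 and Ptgs1 are lowest on sham/PBS, and Ptges, Ptges2 and Ptgis differ little.

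**Figure D2:**
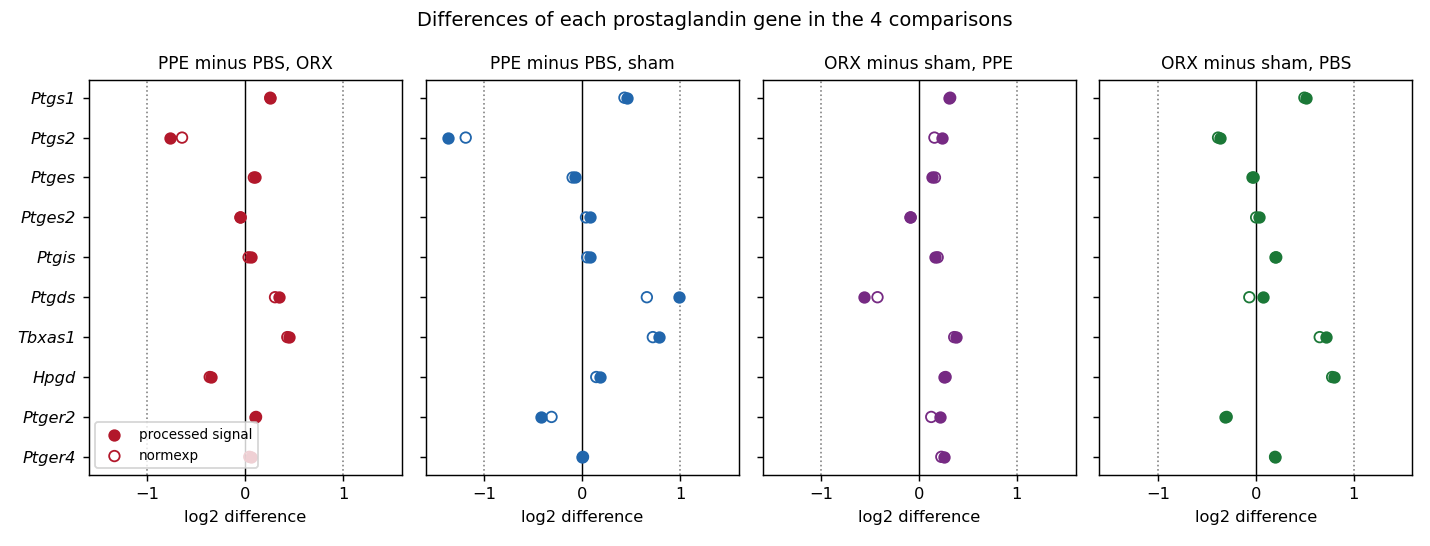
Log2 differences of the 10 genes in the 4 comparisons, from the processed signal (filled points) and after normexp background correction (open points). Dotted lines mark 2-fold, which Ptgs2 passes under both in the comparison of PPE with PBS in sham mice.

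By its brightest probe Ptgs1, the other cyclooxygenase, was higher after PPE in both surgeries, where Ptgs2 was lower. The 2 also went opposite ways for ORX against sham under PBS, while under PPE both were higher. The Ptgs1 signal was 6238 on ORX/PPE, 5231 on ORX/PBS, 5056 on sham/PPE and 3666 on sham/PBS. It was lowest on sham/PBS and highest on ORX/PPE, with the other two arrays close together. PPE against PBS gave 0.25 in ORX mice and 0.46 in sham mice, and ORX against sham gave 0.30 under PPE and 0.51 under PBS, each below 1.5-fold. A second Ptgs1 probe, with signals of 168 to 206, went the same way for PPE in sham mice (0.29) and ORX under PBS (0.24). It went the other way for PPE in ORX mice (-0.11) and ORX under PPE (-0.16).

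Prostaglandin E2 is made from prostaglandin H2 by Ptges, the membrane-bound inducible synthase, and by Ptges2, a second membrane-associated synthase. Both were nearly level over the 4 arrays. The brightest Ptges probe had 23926 on ORX/PPE, 22300 on ORX/PBS, 21788 on sham/PPE and 22955 on sham/PBS, and its range was 0.14. Ptges2 had 1235 on ORX/PPE, 1278 on ORX/PBS, 1320 on sham/PPE and 1252 on sham/PBS, a range of 0.10. The median range of all 19320 genes above background on every array was 0.31, so both lay below it.

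The 2 dimmer probes of Ptges differed from the bright one. The probe at chr2:30747838-30747897 (build mm9, minus strand) had 310 on ORX/PPE, 351 on ORX/PBS, 466 on sham/PPE and 450 on sham/PBS. It was lower on both ORX arrays, with ORX against sham at -0.59 under PPE and -0.36 under PBS. The probe at chr2:30748214-30748273 had 207 on ORX/PPE, 240 on ORX/PBS, 267 on sham/PPE and 224 on sham/PBS. The last 30 bases of each show how they differ, as the bright probe, at chr2:30744995-30745054, holds a poly(A) signal hexamer, in capitals, and the dim probes hold none.
Ptges bright probe: agtcagccccaATTAAAtgctttcctttat
Ptges dim probe at 30747838: gaggacatccttcacctcacaaaatgcctt
Ptges dim probe at 30748214: gttgtcctcacaggccgtgtggtacacacc
The hexamers searched were AATAAA and ATTAAA, which 13.4% of all 56605 probes held, as did 5 of the 19 probes of these genes. In 3 of the 4 comparisons both dim probes had the opposite sign to the bright one, so for Ptges the direction depends on the probe.

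Of the other terminal synthases, Tbxas1, which makes thromboxane A2 in platelets and macrophages, was the lowest on sham/PBS and higher on the other 3 arrays. Its signal was 1216 on ORX/PPE, 890 on ORX/PBS, 936 on sham/PPE and 542 on sham/PBS. PPE against PBS gave 0.45 in ORX mice and 0.79 in sham mice, and ORX against sham gave 0.38 under PPE and 0.72 under PBS. Past 1.5-fold were PPE in sham mice and ORX under PBS. Its range of 1.17 was larger than that of 97.5% of genes above background on every array. The other Tbxas1 probes, 2 in number, were not above background on any array.

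The summed signal of alveolar macrophage markers had the same order of arrays as Tbxas1, while 3 of the 10 markers had it singly. On sham/PBS 7 of the 10 were lowest, and on ORX/PPE 6 were highest. The 10 of them, all above background on every array, summed to 136568 on ORX/PPE, 88587 on ORX/PBS, 121736 on sham/PPE and 64019 on sham/PBS. Their scavenger receptor gene Marco had 6151 on ORX/PPE, 1248 on ORX/PBS, 5183 on sham/PPE and 1486 on sham/PBS. Chil3, a chitinase-like protein of these cells, had 82594, 40553, 65297 and 31996 on the arrays in that order. It gave the largest part of each sum, so the order of the sums rests largely on it. The 10 monocyte and interstitial macrophage markers, all above background, summed to 482728 on ORX/PPE, 440605 on ORX/PBS, 516969 on sham/PPE and 467050 on sham/PBS. This sum did not have the Tbxas1 order, and 0 of the 10 markers had it singly, though 8 were lowest on sham/PBS. C1qb and C1qa, the widest among them, had 1081 and 1292 on ORX/PPE, 1171 and 1599 on ORX/PBS, 998 and 1313 on sham/PPE, and 713 and 1033 on sham/PBS. The 10 platelet markers, all above background too, summed to 11101 on ORX/PPE, 12257 on ORX/PBS, 15512 on sham/PPE and 13205 on sham/PBS, and so did not have the Tbxas1 order. Of these, Gp9 had its lowest signal on ORX/PPE (697) and Treml1 on ORX/PBS (740). The part of any of these cell types in the Tbxas1 and Ptgs1 values was not tested.

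Ptgds, which makes prostaglandin D2 and carries small lipids as a lipocalin, was highest on sham/PPE. Its probe was spotted 10 times on each array, so the scatter of spots can be given. The signal was 101 on ORX/PPE (spots from 87.2 to 113), 79.2 on ORX/PBS (68.7 to 85.3, 9 spots after 1 outlier was left out), 149 on sham/PPE (134 to 160) and 75.1 on sham/PBS (64.7 to 84.0). The sham/PPE spots lay above all those of the other arrays. PPE against PBS gave 0.34 in ORX mice and 0.99 in sham mice, just below 2-fold, and ORX against sham gave -0.57 under PPE and 0.08 under PBS. The PPE difference in sham mice passed 2-fold under quantile normalization, median scaling and the authors' value table, where it was 1.05 to 1.07, and was 0.66 after normexp. Prm1, Ucp1 and the cardiac sum named above were also highest on sham/PPE, and the part of those tissues in the Ptgds value was not tested. Of the 10 germ cell markers, Odf1 and Crisp2 were above background on none of the arrays, and the 4 above background on all of them summed to 475 on ORX/PPE, 481 on ORX/PBS, 1566 on sham/PPE and 578 on sham/PBS. Prm1, above background on 3 arrays, is not in that sum. Prm2, the second widest germ cell gene, had 48.4 on ORX/PPE, 31.8 on ORX/PBS, 782 on sham/PPE and 38.7 on sham/PBS. The 9 adipose markers above background on all arrays, which leave out Ucp1, summed to 40163 on ORX/PPE, 50433 on ORX/PBS, 59400 on sham/PPE and 39935 on sham/PBS. Cidea, a lipid droplet protein gene of brown fat, had 458 on ORX/PPE, 480 on ORX/PBS, 2772 on sham/PPE and 619 on sham/PBS. All 10 cardiac markers were above background on every array, and their sum was 27765 on ORX/PPE, 55582 on ORX/PBS, 145335 on sham/PPE and 68657 on sham/PBS. The natriuretic peptide genes Nppb and Nppa, the widest of these, had 1584 and 48253 on sham/PPE against 60.4 and 6031 on sham/PBS.

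Ptgis, the prostacyclin synthase of endothelium and smooth muscle, differed little. Its brightest probe had 14026 on ORX/PPE, 13506 on ORX/PBS, 12488 on sham/PPE and 11816 on sham/PBS. Both ORX arrays were slightly above both sham arrays, at 0.17 under PPE and 0.19 under PBS. A second probe had 1404 on ORX/PPE, 1612 on ORX/PBS, 1178 on sham/PPE and 1052 on sham/PBS, with ORX against sham at 0.25 under PPE and 0.62 under PBS, and the dimmest stayed between 42.1 and 48.1. For PPE in ORX mice the bright probe gave 0.05, and the other two gave -0.20 and -0.18.

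Hpgd, the enzyme that starts prostaglandin breakdown, was highest on ORX/PBS. Its single probe had 21378 on ORX/PPE, 27324 on ORX/PBS, 17866 on sham/PPE and 15749 on sham/PBS. Both ORX arrays exceeded both sham arrays. ORX against sham gave 0.26 under PPE and 0.79 under PBS, the second past 1.5-fold. PPE against PBS gave -0.35 in ORX mice and 0.18 in sham mice, of opposite sign. The SD of a difference from spots alone was 0.05 at this brightness. A list of 12 glucocorticoid response genes, all above background, summed to 231129 on ORX/PPE, 171100 on ORX/PBS, 222904 on sham/PPE and 226421 on sham/PBS. The sum was lowest where Hpgd was highest, with 6 of the 12 genes lowest there, and its part in the Hpgd value was not tested. Tsc22d3, Fkbp5, Per1, Zbtb16, Sgk1 and Dusp1 were lowest on other arrays. Angptl4 had 14269 on ORX/PPE, 7520 on ORX/PBS, 19197 on sham/PPE and 23411 on sham/PBS, and Cdkn1a had 2540, 1456, 3312 and 3915 in the same order. Slco2a1, the transporter that carries prostaglandins into cells for breakdown, had 20879 on ORX/PPE, 21225 on ORX/PBS, 18130 on sham/PPE and 16312 on sham/PBS, and was named after its values were seen.

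Ptger2 and Ptger4 encode receptors that raise cAMP when they bind prostaglandin E2. Ptger2 had 282 on ORX/PPE, 263 on ORX/PBS, 244 on sham/PPE and 327 on sham/PBS. It was highest on sham/PBS and lowest on sham/PPE, as Ptgs2 was, with a PPE difference of 0.10 in ORX mice and -0.42 in sham mice and an SD from spots of 0.11. Ptger4 had 1149 on ORX/PPE, 1104 on ORX/PBS, 963 on sham/PPE and 965 on sham/PBS. Both ORX arrays lay above both sham arrays, by 0.26 under PPE and 0.19 under PBS. A dimmer Ptger4 probe had the same signs in all 4 comparisons, and the third Ptger4 probe was not above background on any array. Over the 6 other probes above background on all 4 arrays, the sign matched that of the brightest probe in 12 of 24 comparisons.

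**Figure D3:**
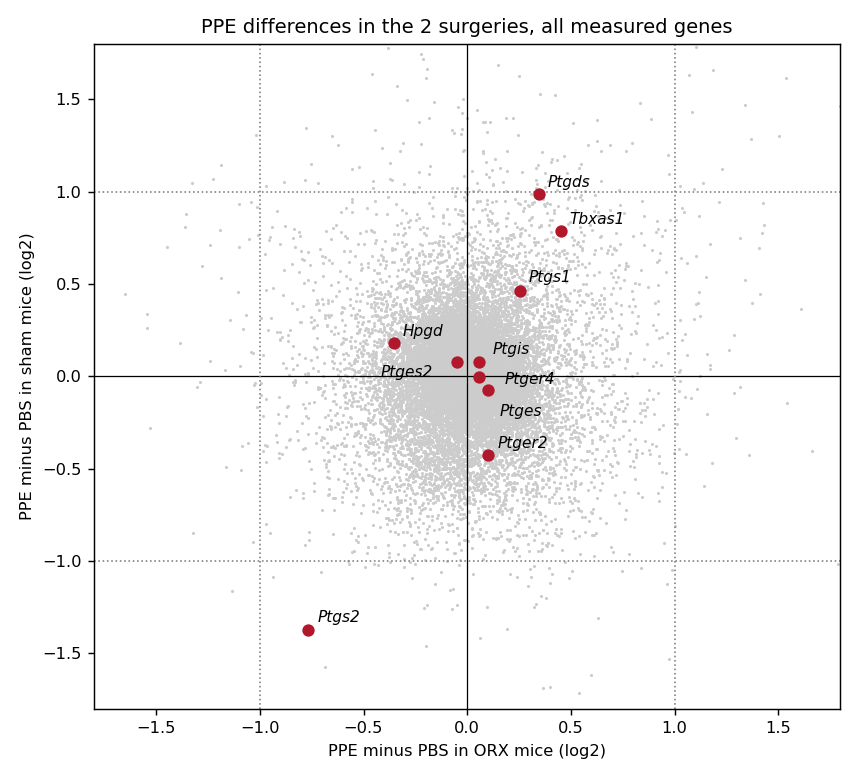
Log2 difference of PPE against PBS in ORX mice (horizontal) and in sham mice (vertical) for 19320 genes above background on all 4 arrays (grey) and the 10 prostaglandin genes (red), with dotted lines at 2-fold. Of the 10, Ptgs2 is the one at the lower left, at -0.77 and -1.37, and 29 genes lie outside the axes.

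Genes whose signal varied over the 4 arrays most like that of Ptgs2 were found by the Euclidean distance of log2 values centred over the arrays, among 19319 other genes above background on all 4. With 4 arrays such a likeness is weak, and the genes are named as a description. The nearest were C030013C21Rik, Ptgs2os2, AW060742, D130043K22Rik and the proteoglycan gene Optc, at distances of 0.25 to 0.35. Ptgs2os2 is an opposite-strand non-coding transcript beside Ptgs2. C030013C21Rik and AW060742 had signals of 15.7 to 39.5, and after normexp their PPE differences were between -0.07 and -0.01, which left little of the differences seen in the processed signal. The genes nearest to Tbxas1 were the B-cell kinase gene Blk, the metalloproteinase gene Mmp19, the scavenger receptor gene Olr1, Ntn5 and LOC668415, at distances of 0.09 to 0.15. Blk and LOC668415 were dim too, with signals of 19.2 to 50.9. After normexp their differences of ORX against sham were between 0.00 and 0.07, which left little of them. Their PPE differences were then between 0.34 and 0.37. Mmp19 had 3225 on ORX/PPE, 2375 on ORX/PBS, 2437 on sham/PPE and 1535 on sham/PBS, and Olr1 had 378, 293, 314 and 165 in that order.

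Within 400 kb of the Ptgs2 probe (build mm9) the array held 19 probes, of which 13 were above background on all 4 arrays. Ptgs2os2 and a probe of a lincRNA region are the ones nearest to the Ptgs2 probe among them, and their whole sequences are given below with the last 30 bases of the Ptgs2 probe. The Ptgs2 probe is at chr1:151954744-151954803 on the plus strand, that of Ptgs2os2 at chr1:152006391-152006450 on the minus strand, and that of the lincRNA at chr1:152007786-152007845 on the minus strand.
Ptgs2: ctgttggaatttacgcataaagcagactgc
Ptgs2os2: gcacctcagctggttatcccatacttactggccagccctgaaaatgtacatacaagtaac
lincRNA: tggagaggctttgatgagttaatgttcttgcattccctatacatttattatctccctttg
Ptgs2os2, 51.7 kb away, had 174 on ORX/PPE, 259 on ORX/PBS, 152 on sham/PPE and 308 on sham/PBS. Both PPE arrays were below both PBS arrays, with PPE differences of -0.57 in ORX mice and -1.01 in sham mice, and of -0.38 and -0.64 after normexp. The lincRNA probe had 37.8 on ORX/PPE, 65.6 on ORX/PBS, 41.1 on sham/PPE and 83.3 on sham/PBS. Its PPE differences were -0.79 in ORX mice and -1.02 in sham mice, and -0.24 and -0.28 after normexp. Both probes lie in the region chr1:152001112-152012796, whose other, plus-strand probe was not above background on any array. Whether they measure 1 transcript was not tested.

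Further away, the other 10 probes had PPE differences from -0.25 to 0.18 in ORX mice and from -0.30 to 0.88 in sham mice. The lowest was Pla2g4a, the cytosolic phospholipase A2 that frees arachidonic acid, which had 1177 on ORX/PPE, 1400 on ORX/PBS, 1352 on sham/PPE and 1669 on sham/PBS. Its PPE differences were -0.25 in ORX mice and -0.30 in sham mice. The highest, in sham mice, was Prg4, which encodes a lubricating proteoglycan, at 0.88. The probes of BC003331 and Tpr, a nuclear pore protein, stayed between -0.19 and 0.18 in both surgeries.

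**Figure D4:**
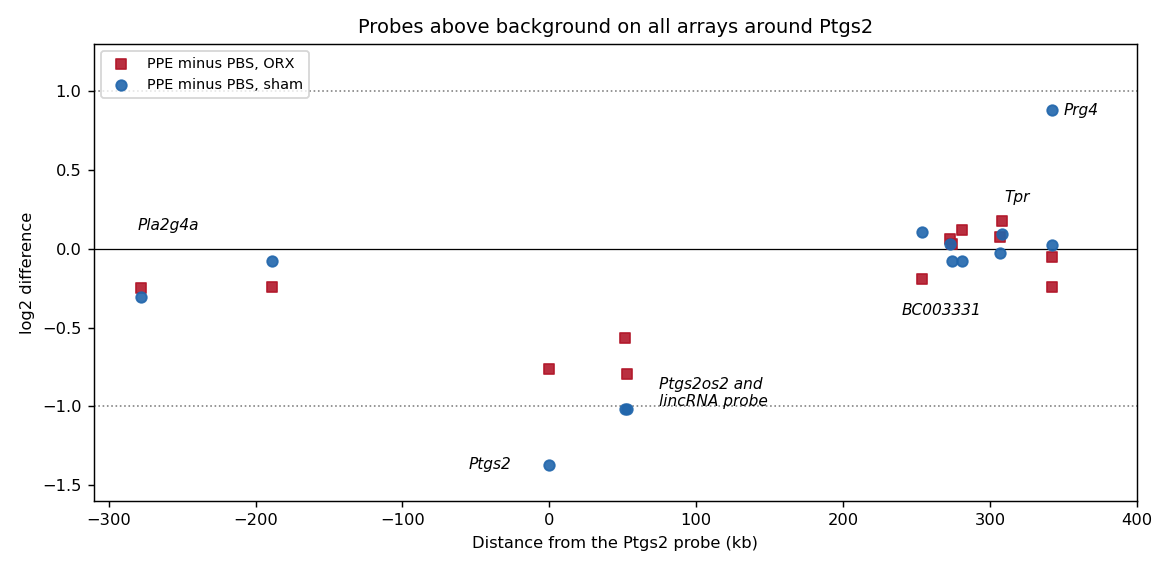
Log2 difference of PPE against PBS in ORX mice (red squares) and in sham mice (blue circles) for the 13 probes above background on all 4 arrays, by distance from the Ptgs2 probe in kb. In the processed signal Ptgs2, Ptgs2os2 and the lincRNA probe lie between -0.57 and -1.37, and all others lie at -0.30 or above. After normexp, not shown, the dim lincRNA probe had -0.24 in ORX mice and -0.28 in sham mice, beside -0.24 and -0.29 for Pla2g4a.

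The summed markers of 2 other cell types had the order of arrays that Ptgs2 had, while 6 of 10 ciliated cell markers and 3 of 10 smooth muscle markers had it singly. The 10 ciliated cell markers, all above background, summed to 122575 on ORX/PPE, 133744 on ORX/PBS, 117840 on sham/PPE and 152392 on sham/PBS. Tppp3 gave the largest part of each of these sums, and their order rests on it only in part. The sums were lower on sham/PPE than on ORX/PPE, where Tppp3 went the other way. It had 68325 on ORX/PPE, 81699 on ORX/PBS, 70706 on sham/PPE and 87205 on sham/PBS, so it did not have the Ptgs2 order itself. The median PPE difference of the ciliated markers was -0.01 in ORX mice and -0.50 in sham mice. The 10 smooth muscle markers, all above background, summed to 64533 on ORX/PPE, 71491 on ORX/PBS, 56918 on sham/PPE and 72752 on sham/PBS. Their median PPE difference was -0.11 in ORX mice and -0.33 in sham mice. The widest markers were Foxj1 and Dnah5 of ciliated cells, with PPE differences in sham mice of -0.75 and -0.72, and Cnn1 and Myh11 of smooth muscle, with -0.89 and -0.66. In ORX mice these 4 genes had -0.02, 0.20, -0.54 and -0.03. The part of these cells in the Ptgs2 values was not tested. Of 21 immediate early genes, which are induced with Ptgs2 in many settings, 20 were above background on all arrays. The median PPE difference was -0.20 in ORX mice, over all 21, and -0.04 in sham mice, over these 20. Egr1 had 2097 on ORX/PPE, 4954 on ORX/PBS, 3822 on sham/PPE and 3604 on sham/PBS, and Fosl1 was above background on 2 arrays.

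Other genes of the pathway were taken from 5 lists with 48 genes, of which 47 were on the array and 45 were above background on all 4 arrays. At 1.5-fold, 0 were higher and 3 lower for PPE in ORX mice, where 5.83% of all genes tested passed, and 9 higher and 1 lower for PPE in sham mice, where 9.16% passed. For ORX under PPE 0 were higher and 4 lower, beside 7.05%, and for ORX under PBS 4 were higher and 2 lower, beside 9.39%. The median difference over the lists was 0.00 for PPE in ORX mice, 0.22 for PPE in sham mice, -0.04 for ORX with PPE and 0.15 for ORX with PBS.

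Arachidonic acid release had 13 genes. Among them Pla2g5, a secreted phospholipase A2, had 25.3 on ORX/PPE, 28.9 on ORX/PBS, 99.4 on sham/PPE and 31.4 on sham/PBS. It was high on sham/PPE alone, with PPE differences of -0.19 in ORX mice and 1.66 in sham mice, and 0.15 and 0.74 after normexp. A second Pla2g5 probe was above background on 1 array. Of the 10 cardiac markers 8 were also highest on sham/PPE, and their part in this value was not tested. Pla2g4f, a cytosolic phospholipase A2, had PPE differences of 0.12 in ORX mice and 0.62 in sham mice, at signals of 34.7 to 53.5.

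Among 8 other synthases, Akr1c18 had the widest range. It encodes a steroid dehydrogenase that breaks down progesterone and also has prostaglandin F synthase activity. Its signal was 40.3 on ORX/PPE, 72.1 on ORX/PBS, 226 on sham/PPE and 134 on sham/PBS. Both ORX arrays were below both sham arrays, at -2.49 under PPE and -0.90 under PBS, and at -1.56 and -0.65 after normexp. PPE against PBS gave -0.84 in ORX mice and 0.75 in sham mice, of opposite sign. Hpgds, the prostaglandin D2 synthase of blood cells, had signals between 22.5 on sham/PBS and 35.6 on ORX/PBS, and after normexp its differences were between -0.23 and 0.27.

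Of breakdown and transport genes, Cyp4f18, a cytochrome P450 that oxidises leukotriene B4 in neutrophils, had 4102 on ORX/PPE, 3314 on ORX/PBS, 4509 on sham/PPE and 2803 on sham/PBS. By this brightest probe both PPE arrays were above both PBS arrays, by 0.31 in ORX mice and 0.69 in sham mice. Another Cyp4f18 probe gave 0.30 in ORX mice and 0.53 in sham mice. The dimmest probe had 363 on ORX/PPE, 361 on ORX/PBS, 363 on sham/PPE and 229 on sham/PBS. Its PPE differences were 0.01 in ORX mice and 0.67 in sham mice, so the difference in ORX mice depends on the probe. The 9 of 10 neutrophil markers above background on all arrays, with Ngp the exception, summed to 123117 on ORX/PPE, 101946 on ORX/PBS, 172917 on sham/PPE and 82491 on sham/PBS. The sums differed mostly through S100a9 and S100a8. S100a9 had 92013 on sham/PPE against 23421 on sham/PBS. Csf3r, also a large part of each sum, went the other way, with 47231 against 51037. Of the 10 markers 7 were highest on sham/PPE and 6 were lowest on sham/PBS. The part of neutrophils in the Cyp4f18 values was not tested. Of the receptor list, 7 of 8 genes were above background on all arrays, and all 7 had a PPE difference above 0 in sham mice, as 4 had in ORX mice. Over the 5 lists together 37 genes were above 0 and 9 below in sham mice, and 23 above and 22 below in ORX mice. The share of all genes above 0 was not computed, so nothing is read from the receptor count. Ptgdr2, a prostaglandin D2 receptor of eosinophils and helper T cells, had 46.6 on ORX/PPE, 33.3 on ORX/PBS, 68.7 on sham/PPE and 53.5 on sham/PBS, so both ORX arrays were below both sham arrays. Ptgir, the prostacyclin receptor, had 695 on ORX/PPE, 601 on ORX/PBS, 512 on sham/PPE and 338 on sham/PBS, and was named after its values were seen.

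The leukotriene and lipoxygenase branch, which competes for the same arachidonic acid, had 13 genes. At 1.5-fold, PPE gave 0 higher and 2 lower genes in ORX mice, beside 5.83% of all genes tested, and 4 higher and 1 lower in sham mice, beside 9.16%. Cysltr2, a receptor for cysteinyl leukotrienes, was the widest of them, with 28.4 on ORX/PPE, 39.2 on ORX/PBS, 20.6 on sham/PPE and 31.6 on sham/PBS. Its PPE differences of -0.47 in ORX mice and -0.62 in sham mice became -0.01 and 0.05 after normexp. Alox5, the lipoxygenase that starts leukotriene synthesis, had 1608 on ORX/PPE, 1604 on ORX/PBS, 1510 on sham/PPE and 951 on sham/PBS, and was named after its values were seen. It was low on sham/PBS alone, with PPE differences of 0.00 in ORX mice and 0.67 in sham mice.

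**Figure D5:**
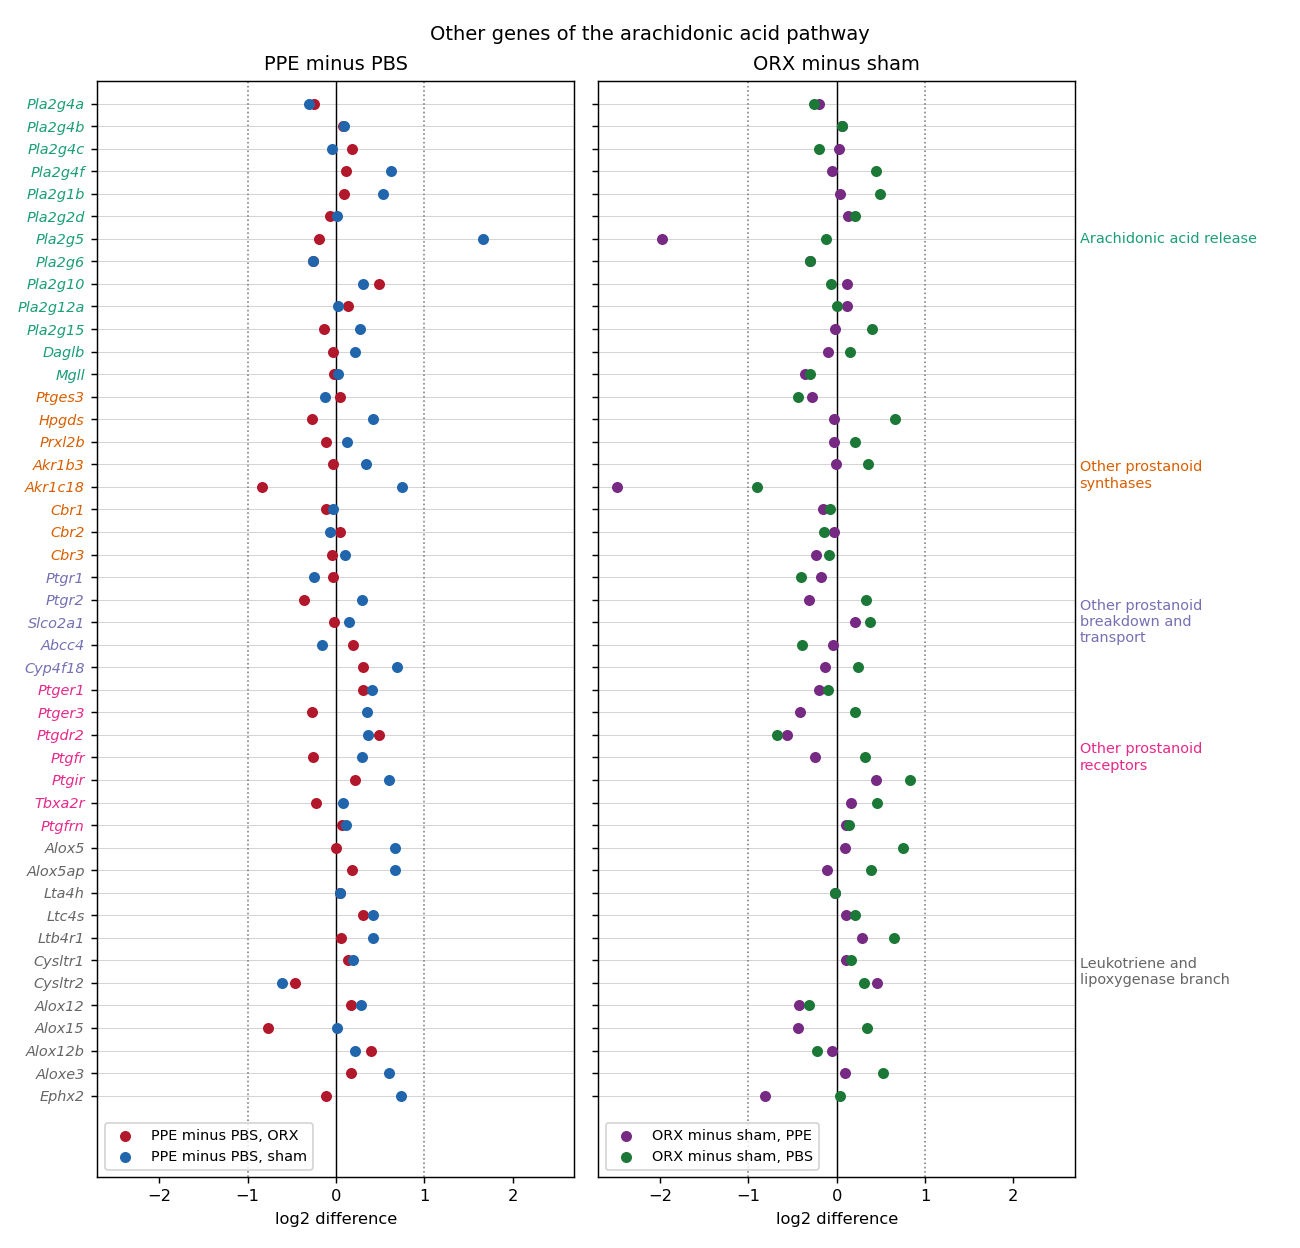
Log2 differences of the 45 other pathway genes above background on all 4 arrays, with PPE minus PBS on the left (ORX red, sham blue) and ORX minus sham on the right (under PPE purple, under PBS green), grouped by list. Dotted lines mark 2-fold, which Pla2g5 and Akr1c18 pass.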

How the data were processed

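Total RNA of frozen lung, pooled from 5 mice per group, was labelled with Cy3 and hybridised to Agilent arrays, per the labels' protocols. The processed signal is a linear intensity after background subtraction by the scanner software, with no scaling between arrays, per the file headers. Mean signal, local background and the software's error are on the same linear intensity scale, per the file headers, and flag columns of 0 or 1 mark spots at background, saturated spots and outliers. The headers name Feature Extraction 10.7.1.1, while the submitters' processing notes name 9.5.1.1, a conflict that was not resolved. The authors' deposited value table holds linear intensity values and served as an alternative.

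Control and outlier spots were left out, spots of a probe were averaged, and each array was divided by the 75th percentile of its 59305 non-control spots, which was 860.9 on ORX/PPE, 999.2 on ORX/PBS, 829.8 on sham/PPE and 852.9 on sham/PBS. No spot was saturated. Genes were named by accession, symbol or synonym through the RefSeq table (32994, 10224 and 520 probes), and 2574 probes kept the file's name. Each gene took its brightest probe, and a fold was called at 2-fold, between values well above background or from a bound where 1 of them was. Depth is not defined for arrays, and their number limits the precision. Named are all 10 genes with every probe, pathway genes past 2-fold and the widest other gene of each list, the 5 genes nearest to the 2 widest of the 10, and the 2 widest genes of a marker list set beside one. The genes and lists were chosen with earlier results of these data known. Alternatives were normexp with an offset of 50 (limma 3.58.1, R 4.3.3), quantile and median scaling, stricter and no background filters, the mean of probes, the value table and 1.5-fold. The calling step was run on simulated arrays with changes set beyond the threshold and no variation between mice. That checks the code and says nothing about the calls made here. Python 3.11.15 was used with pandas 2.3.3, numpy 2.4.6 and, for figures, matplotlib 3.10.9.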

Additional observations from a re-analysis of the deposited data

Results flagged for a closer look

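Over the 10 genes and the 45 other pathway genes above background on all arrays, the difference of PPE against PBS had opposite signs in ORX and sham mice for 26 of 55, and for 4 of these both sides were beyond 2 spot SDs. Hpgd had -0.354 in ORX mice and 0.182 in sham mice, a difference of -0.536 (ORX minus sham). Akr1c18 had -0.839 in ORX mice and 0.751 in sham mice, a difference of -1.590. Ptgr2, a reductase that acts on prostaglandin breakdown products, had -0.361 in ORX mice and 0.295 in sham mice, a difference of -0.656. Ptgfr, the prostaglandin F receptor, had -0.265 in ORX mice and 0.295 in sham mice, a difference of -0.560. Each surgery had 1 array per agent, spot SDs cover spots and not mice, and none of these differences was tested. The share of all genes with opposite signs was not computed, so nothing is read from these counts about the pathway.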

How the results depend on the processing

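Of the 10 genes, 1 was at least 2-fold apart for PPE in sham mice, and 2 were under quantile normalization, median scaling and the value table, where Ptgds joined Ptgs2. At 1.5-fold the counts were 1 for PPE in ORX mice, 3 for PPE in sham mice, 2 for ORX under PBS and 2 for the difference of the PPE differences, beside 0, 1, 0 and 0 at 2-fold. In the first 3 of these 5.83%, 9.16% and 9.39% of all genes passed 1.5-fold. For the difference of the PPE differences the share of all genes was not computed. Ptgs2 kept its sign in all 4 comparisons under every alternative run, with a PPE difference of -0.79 to -0.65 in ORX mice and -1.37 to -1.19 in sham mice. Of the single values of all 10 genes under the alternatives, 302 stayed within the spot SD and 48 moved by more. Those that took another sign were of Ptger4, Ptges, Ptgis and Ptgds, whose differences at the main setting were at most 0.19 in size. Many of the 302 could not move. The stricter and absent background filters change no value of these genes, since all 10 were above background on all arrays. The mean of probes changes none for a gene with a single probe, such as Ptgs2. The value table also gave values close to those of quantile normalization. Over all genes the share called was 0.123% for PPE in ORX mice, 0.321% for PPE in sham mice, 0.452% for ORX under PPE and 0.453% for ORX under PBS with normexp, and was 6.6%, 7.58%, 7.5% and 7.27% with no background filter and 2.8%, 3.62%, 3.6% and 3.42% with the mean of probes, beside 1.06%, 1.71%, 1.74% and 1.84%. With only probes above background on all 4 arrays the shares were 0.621%, 1.13%, 1.26% and 1.31%. No paired analysis was possible because each group had 1 array, and no replicate could be left out. The differences of dim genes such as Pla2g5 and Cysltr2 were smaller with normexp. No spread between mice is known.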
